A study of Homo sapiens with 38 samples.

Results

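The genes described are 6 members of the NF-kB system: NFKB1, NFKB2 and RELB, which encode subunits of the transcription factor, and NFKBIA, NFKBIE and NFKBID, which encode inhibitors of the IkB family. They were chosen by symbol, as the probe sets whose only annotated gene is 1 of the 6, with earlier results of these data known. Each gene had 1 probe set, so 6 of 14488 probe sets and 6 of 11893 named genes are described. The probe sets are 8096635 for NFKB1, 7930074 for NFKB2, 8029580 for RELB, 7978644 for NFKBIA, 8126666 for NFKBIE and 8036207 for NFKBID. Other genes of the same families, among them RELA, REL, NFKBIB, NFKBIZ and BCL3, were measured too and are given at the end.

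NF-kB is a dimer of REL-family proteins that in resting cells is held inactive in the cytoplasm by IkB proteins. Interleukin 1 beta (IL1B) signals through MYD88 and IRAK kinases to the IkB kinase complex, which marks IkB for destruction and so frees the dimer to enter the nucleus and switch on inflammatory genes. Several NF-kB and IkB genes are themselves NF-kB targets, so that the pathway remakes its own inhibitors. NFKB1 encodes a precursor of the p50 subunit. NFKB2 encodes p100, a precursor of p52 that also acts as an inhibitor and pairs with RELB in the alternative NF-kB pathway.

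The 38 Affymetrix arrays held RNA of A549, an epithelial line derived from a human lung adenocarcinoma and used at passages 90 to 110. In the knockdown arm the cells had received a pool of siRNAs against ORMDL3, an endoplasmic reticulum protein that restrains sphingolipid synthesis. The sources used here do not give what the control arm was transfected with. Both arms belong to 1 line, and after 48 h of silencing and 24 h without serum they received 1 ng/ml IL1B. The arrays were of knockdown cells at 0 h (untreated, 3 arrays), 2 h, 4 h, 8 h and 10 h (4 arrays each), and of control cells at 0 h (untreated), 2 h, 4 h and 10 h (4 arrays each) and at 8 h (3 arrays). No later hour had an untreated array, so an effect of IL1B and of further time in culture cannot be told apart. The labels do not call replicates separate cultures, and the p-values then reflect the spread between these samples alone, possibly a technical one. In bulk RNA, fewer cells carrying a transcript and less of it per cell cannot be told apart.

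The stretches printed here hold the matches to a kappa B motif, the DNA sequence that NF-kB binds, found just before the start sites of these genes, and are shown because all 6 genes moved together under IL1B. They come from RefSeq's promoter table on the GRCh38.p14 build, which held 4 of the 6 genes with 9 start sites between them. RELB and NFKBIE have no entry there. The 250 bases before each start were searched on both strands for the kappa B consensus motif. Of the 9 windows, 6 held a match, and each of the 4 genes had at least 1. Among all 35116 windows of the same length, 5.21% held one, as did 6.28% of 27305 genes. NFKB2 and NFKBID had 3 start sites each, and the most upstream start of each held no match. Upstream and downstream here name the 2 starts of each gene that held a match. Each stretch reads 5′ to 3′ on the gene's strand, and capitals mark the matches.
NFKB1, chr4:102501270-102501358, plus strand: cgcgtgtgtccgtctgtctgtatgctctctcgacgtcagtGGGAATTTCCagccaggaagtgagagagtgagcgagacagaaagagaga
NFKB2, upstream start, chr10:102394431-102394549, plus strand: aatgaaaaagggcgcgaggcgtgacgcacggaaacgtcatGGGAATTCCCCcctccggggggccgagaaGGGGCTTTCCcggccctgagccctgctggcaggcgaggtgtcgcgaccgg
NFKB2, downstream start, chr10:102395489-102395704, plus strand: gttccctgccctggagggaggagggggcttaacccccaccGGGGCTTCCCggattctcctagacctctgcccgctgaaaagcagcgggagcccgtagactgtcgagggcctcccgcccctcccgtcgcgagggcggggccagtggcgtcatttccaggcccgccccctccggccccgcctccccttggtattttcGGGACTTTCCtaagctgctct
NFKBIA, chr14:35404781-35404870, minus strand: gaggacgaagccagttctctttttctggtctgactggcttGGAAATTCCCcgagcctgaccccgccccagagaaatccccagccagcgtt
NFKBID, upstream start, chr19:35900583-35900672, minus strand: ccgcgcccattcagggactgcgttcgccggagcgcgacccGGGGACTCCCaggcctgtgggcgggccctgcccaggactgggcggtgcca
NFKBID, downstream start, chr19:35899892-35899981, minus strand: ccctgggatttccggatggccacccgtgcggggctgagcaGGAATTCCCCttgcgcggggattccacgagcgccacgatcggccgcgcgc

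Counted from the start site, with -1 the base just before it, the NFKB1 match lay at -49 to -40 and the NFKBIA match at -81 to -72. Of the 2 NFKB2 starts that held a match, the upstream one had matches at -107 to -98, at -106 to -97 (overlapping the one before it) and at -78 to -69. The downstream NFKB2 start had one at -176 to -167 and one at -21 to -12. The NFKBID matches lay at -92 to -83 and at -198 to -189. A match describes these letters and was not tested as a binding site.

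ORMDL3 was lower on every knockdown array, at 5.00 to 5.57 on the log2 scale, against 6.78 to 7.77 on control arrays. On the linear scale the knockdown level was 28.9%, 24.3%, 31.3%, 23.0% and 19.6% of control over the hours in order (exact permutation test, two-sided, p = 0.0286 at each hour, the smallest these group sizes allow). Array medians ran from 8.02 to 8.19. The epithelial keratins KRT8, KRT18 and KRT7 averaged 13.0, 12.5 and 12.4, at or above the 98.8th percentile of all probe sets, while the epithelial adhesion gene EPCAM averaged 6.85, at the 28.4th percentile. Of the alveolar markers, ABCA3 averaged 9.31 and LAMP3 7.25 (71.5th and 34.8th percentiles). NKX2-1, SFTPB and SFTPC were looked for too and had no probe set with that single symbol. Of 6 fibroblast and endothelial markers, 2 were measured: COL1A1 averaged 6.78 (27.2nd percentile) and CDH5 6.23 (18.0th). Of 6 leukocyte markers, 3 were measured: CD68, a lysosomal protein of macrophages, averaged 10.2 (84.7th percentile), CD14 7.62 (41.1st) and ITGAM 6.64 (25.0th).

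All 6 genes rose after IL1B in both arms and at every hour, and in each of these 8 comparisons the IL1B arrays lay wholly above the 0 h arrays. The largest change was that of NFKBID at 2 h, 17.8-fold in knockdown cells and 16.7-fold in control cells. The smallest at 2 h was that of NFKBIA, the main cytoplasmic inhibitor, 2.86-fold in knockdown cells and 2.81-fold in control cells. With limma's test adjusted by Benjamini-Hochberg over all probe sets, 6 of 6 were called higher at 2, 4, 8 and 10 h, where 9.57%, 12.6%, 11.2% and 11.6% of all probe sets were called higher in knockdown cells and 10.3%, 17%, 16.4% and 17.7% in control cells. Of all probe sets, 11.8%, 13.7%, 12.9% and 13.4% lay wholly above their 0 h arrays at these hours in knockdown cells and 10.9%, 15.1%, 19.1% and 17.3% in control cells. The 4 comparisons of an arm share its 0 h arrays. The 6 genes were chosen with earlier results of these data known, so the count of 6 of 6 is not an independent test.

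**Figure D1:**
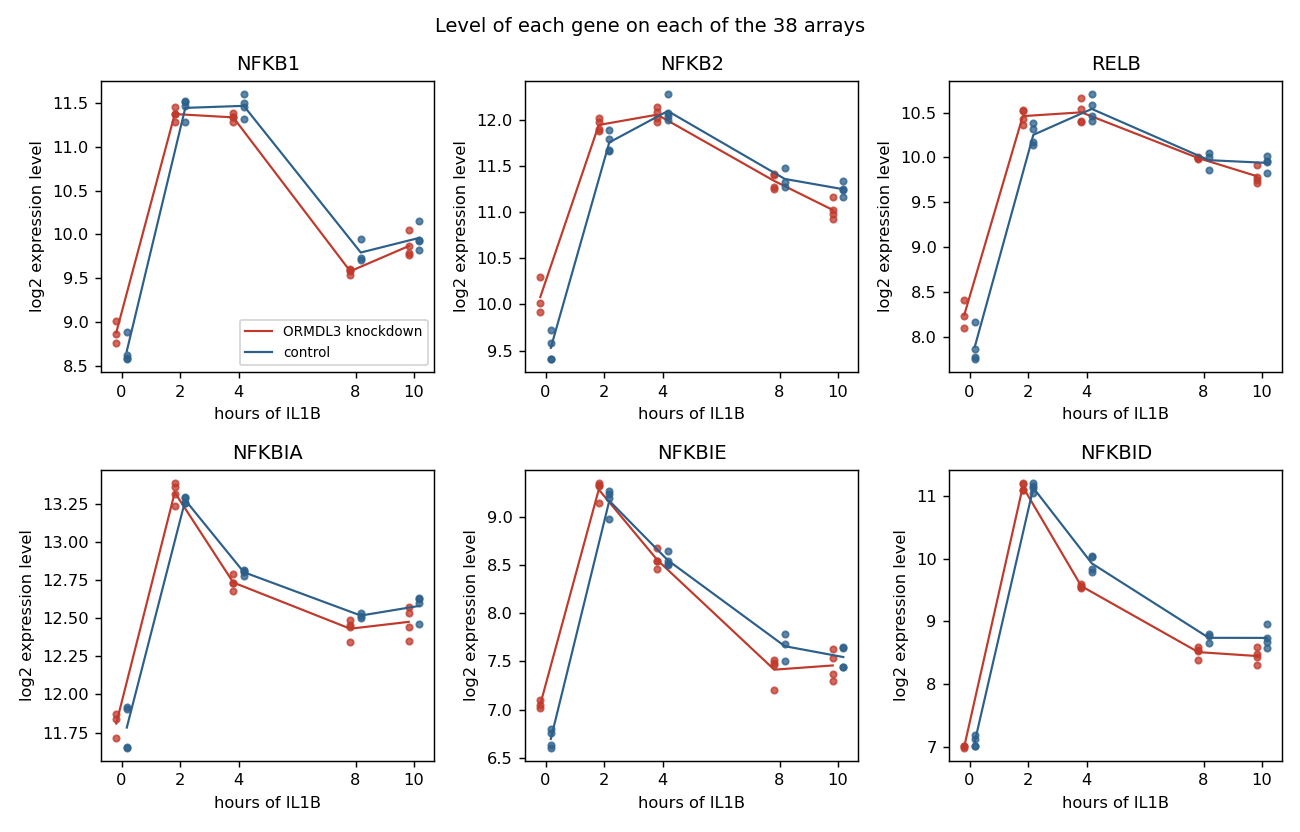
Log2 expression level of each of the 6 genes (vertical axes, 1 scale per gene) against hours of IL1B for the 19 ORMDL3 knockdown arrays (red) and 19 control arrays (blue). Points are single arrays, drawn slightly apart, and lines join group means. All 6 genes lie above their 0 h level at every later hour in both arms.

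NFKB1 rose steeply, held its level to 4 h and then dropped. Its 0 h level was 9.01, 8.76 and 8.86 on the knockdown arrays, against 8.88, 8.58, 8.62 and 8.58 on the control arrays. Group means at 2, 4, 8 and 10 h were 11.38 ± 0.07, 11.34 ± 0.04, 9.58 ± 0.03 and 9.87 ± 0.13 in knockdown cells (SD, n = 4). In control cells they were 11.45 ± 0.11, 11.47 ± 0.12, 9.79 ± 0.13 and 9.96 ± 0.14 (SD, n = 4, and n = 3 at 8 h). The IL1B arrays of 2 and 4 h formed a plateau in both arms, and those of 8 and 10 h stood well below it. The change at 2 h was 2.50 ± 0.09 in knockdown cells (SE, adjusted p = 5.41e-22) and 2.78 ± 0.08 in control cells (adjusted p = 2.23e-24). By 10 h it was 0.99 ± 0.09 in knockdown cells (adjusted p = 7.03e-11) and 1.29 ± 0.08 in control cells (adjusted p = 6.51e-15).

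NFKB2 rose at 2 h, stood highest at 4 h and came down slowly. Its 0 h level was 10.02, 9.92 and 10.30 on the knockdown arrays, against 9.58, 9.41, 9.41 and 9.72 on the control arrays, so the arms did not overlap before IL1B. At 2 h it was 12.02, 11.90, 11.98 and 11.89 in knockdown cells, against 11.80, 11.67, 11.66 and 11.89 in control cells. There 3 of 4 control arrays lay below every knockdown array, and the ranges just overlapped. At 4 h it was 11.97, 12.02, 12.09 and 12.14 in knockdown cells, against 12.07, 12.00, 12.04 and 12.28 in control cells. At 8 h it was 11.26, 11.27, 11.41 and 11.42 in knockdown cells, against 11.33, 11.48 and 11.27 in control cells. The arms ran through each other at both of these hours. At 10 h it was 10.98, 10.93, 11.02 and 11.16 in knockdown cells, against 11.34, 11.17, 11.25 and 11.24 in control cells, with every knockdown array below every control array. The change from 0 h at 2, 4, 8 and 10 h was 1.87, 1.98, 1.26 and 0.94 in knockdown cells (SE 0.09 each), and 2.23, 2.57, 1.83 and 1.72 in control cells (SE 0.08 to 0.09).

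RELB, the partner of p52 in the alternative pathway, followed a course like that of NFKB2 and kept the largest share of its rise. Its 0 h level was 8.10, 8.23 and 8.41 on the knockdown arrays, against 7.87, 7.77, 7.76 and 8.17 on the control arrays. The highest control array lay inside the knockdown range, and the other 3 lay below it. Group means at 2, 4, 8 and 10 h were 10.46 ± 0.08, 10.50 ± 0.13, 9.99 ± 0.01 and 9.79 ± 0.09 in knockdown cells (SD, n = 4), and 10.25 ± 0.12, 10.54 ± 0.13, 9.97 ± 0.10 and 9.94 ± 0.08 in control cells (SD, n = 4, and n = 3 at 8 h). The change at 10 h was 1.54 ± 0.09 in knockdown cells (SE, adjusted p = 2.24e-15) and 2.05 ± 0.08 in control cells (adjusted p = 6.33e-20).

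NFKBIA encodes IkB-alpha, the inhibitor that is destroyed and remade soonest after IL1B. Its group means at 0, 2, 4, 8 and 10 h were 11.81 ± 0.08, 13.32 ± 0.07, 12.73 ± 0.05, 12.43 ± 0.06 and 12.48 ± 0.10 in knockdown cells (SD, n = 4, and n = 3 at 0 h), and 11.78 ± 0.15, 13.27 ± 0.02, 12.80 ± 0.02, 12.52 ± 0.02 and 12.58 ± 0.08 in control cells (SD, n = 4, and n = 3 at 8 h). It peaked at 2 h and then settled above its 0 h level. Its highest array stood at 13.39, where the highest probe set of every array stood at 13.8 or more, and whether the top of the scale shortens its change was not tested. The change at 2 h was 1.52 ± 0.07 in knockdown cells (SE, adjusted p = 2.47e-19) and 1.49 ± 0.06 in control cells (adjusted p = 2.92e-20).

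NFKBIE encodes IkB-epsilon, an inhibitor that acts later than IkB-alpha in the negative feedback. Its 0 h level was 7.04, 7.02 and 7.10 on the knockdown arrays, against 6.61, 6.63, 6.76 and 6.80 on the control arrays, with no overlap. The lower quartile of all probe sets ran from 6.52 to 6.70 over the arrays, so the control 0 h values of NFKBIE were dim. No detection values were used. Group means at 2, 4, 8 and 10 h were 9.28 ± 0.10, 8.55 ± 0.09, 7.41 ± 0.14 and 7.46 ± 0.16 in knockdown cells (SD, n = 4), and 9.16 ± 0.13, 8.55 ± 0.07, 7.66 ± 0.14 and 7.55 ± 0.12 in control cells (SD, n = 4, and n = 3 at 8 h). In knockdown cells it came nearest of the 6 to its 0 h level. The change at 8 h was 0.36 ± 0.09 in knockdown cells (SE, adjusted p = 0.00194) and 0.96 ± 0.09 in control cells (adjusted p = 1.14e-10).

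NFKBID encodes IkBNS, a nuclear IkB protein that binds NF-kB dimers on DNA. Its 0 h level was 7.01, 7.01 and 6.98 on the knockdown arrays, against 7.01, 7.12, 7.00 and 7.18 on the control arrays. At 2 h it was 11.21, 11.19, 11.11 and 11.10 in knockdown cells, against 11.16, 11.05, 11.21 and 11.13 in control cells. Up to that peak the arms overlapped. At 4 h it was 9.60, 9.57, 9.55 and 9.54 in knockdown cells, against 10.04, 9.80, 10.04 and 9.84 in control cells. At 8 h it was 8.54, 8.59, 8.53 and 8.38 in knockdown cells, against 8.80, 8.65 and 8.76 in control cells. At both hours every knockdown array lay below every control array. At 10 h it was 8.48, 8.43, 8.58 and 8.30 in knockdown cells, against 8.96, 8.58, 8.73 and 8.68 in control cells, and the ranges met at their edge.

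Between 2 and 4 h the 3 inhibitor genes described fell in both arms while the 3 subunit genes described did not. NFKBIA fell by 0.59 ± 0.06 in knockdown cells and by 0.47 ± 0.06 in control cells (SE). NFKBIE fell by 0.73 ± 0.08 and NFKBID by 1.59 ± 0.07 in knockdown cells, and by 0.62 ± 0.08 and 1.21 ± 0.07 in control cells. In control cells NFKB2 rose by 0.34 ± 0.08 (limma, adjusted p = 0.00314) and RELB by 0.29 ± 0.08 (adjusted p = 0.0163). The step of these genes in knockdown cells was 0.11 ± 0.08 and 0.04 ± 0.08, and that of NFKB1 was -0.04 ± 0.08 in knockdown cells and 0.02 ± 0.08 in control cells, none of them called. Thus 3 of 6 were called lower in knockdown cells, where 6.81% of all probe sets were. In control cells 3 were called lower and 2 higher, where 6.85% and 6.54% were. The step was not compared between the arms, and the call for RELB in control cells was lost without control 2 h array 1 or 3 or control 4 h array 4 (0.23 to 0.26, adjusted p = 0.0597 to 0.0807). Other genes of these families did not all follow this split. The mean of the subunit gene REL went from 10.91 to 9.63 in knockdown cells and from 10.96 to 9.82 in control cells. That of the inhibitor gene NFKBIB went from 10.69 to 10.73 and from 10.68 to 10.88. NFKBIZ and BCL3 fell in both arms, and RELA went from 10.15 to 10.11 and from 10.03 to 10.25. These steps were not tested.

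From 4 to 8 h all 6 genes fell in both arms, where 12.7% of probe sets were called lower in knockdown cells and 10.6% in control cells. NFKB1 fell by the most, by 1.76 ± 0.08 in knockdown cells and by 1.68 ± 0.09 in control cells (SE). NFKBIA fell by the least, by 0.30 ± 0.06 in knockdown cells and by 0.28 ± 0.07 in control cells. From 8 to 10 h, 2 of 6 were called in knockdown cells: NFKB1 was higher by 0.29 ± 0.08 (limma, adjusted p = 0.0470) and NFKB2 fell by 0.31 ± 0.08 (adjusted p = 0.0294), where 1.82% of probe sets were called higher and 0.511% lower. In control cells limma called 0 of 6, also at an unadjusted p under 0.05, where 2.14% were called higher and 0.739% lower. Both knockdown calls were lost with quantile normalization (adjusted p = 0.0608 for NFKB1 and 0.0666 for NFKB2). The call for NFKB1 was also lost without any 1 of 26 arrays (adjusted p = 0.0501 to 0.171) and that for NFKB2 without knockdown 8 h array 3 or 4 or knockdown 10 h array 1, 2 or 3 (adjusted p = 0.0592 to 0.114).

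By 10 h the genes had kept different shares of the log2 change they had at 2 h. RELB kept 69.8% in knockdown cells and 86.8% in control cells, and NFKB2 kept 50.6% in knockdown cells and 77.2% in control cells. In knockdown cells NFKBIA kept 44.0%, NFKB1 39.6% and NFKBID 34.8%, against 53.5%, 46.5% and 40.9% in control cells. NFKBIE kept the least, 18.1% in knockdown cells and 34.4% in control cells. All 6 were lower at 10 h than at 2 h in both arms, where 15.1% of probe sets were called lower in each.

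**Figure D2:**
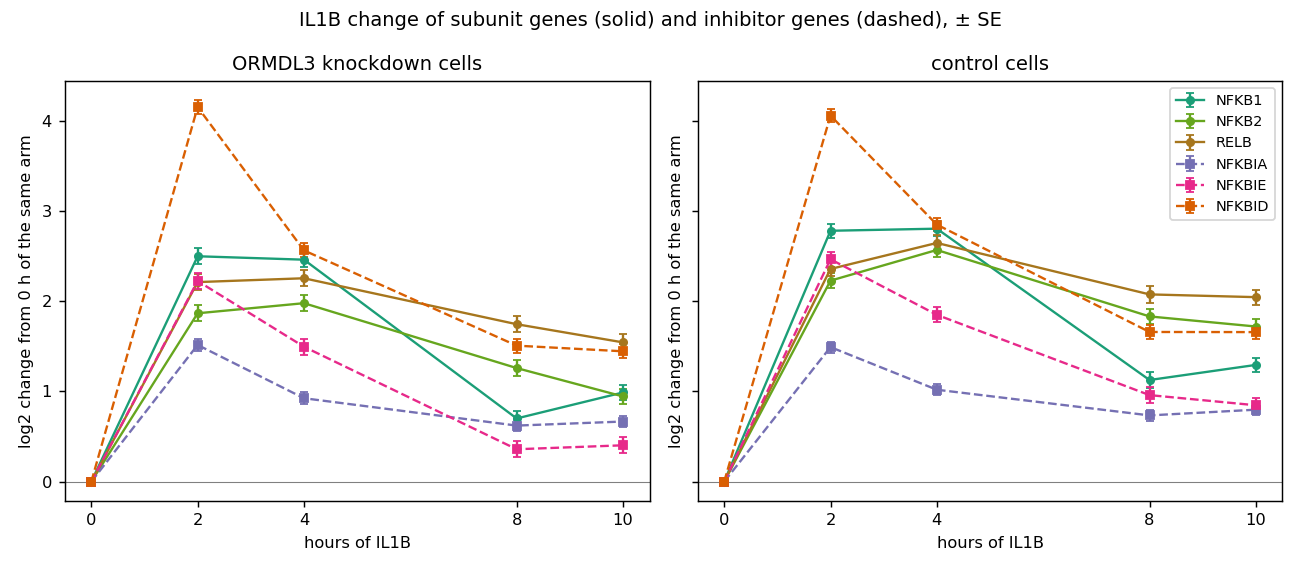
Log2 change from the 0 h arrays of the same arm (vertical axis) against hours of IL1B, in knockdown cells (left) and control cells (right). Points are limma estimates ± SE, subunit genes are drawn solid with circles and inhibitor genes dashed with squares. The inhibitor genes drawn turn down after 2 h, and the subunit genes drawn fall clearly only after 4 h.

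Ordered by level, the 2 and 4 h groups came first and the 0 h groups last for NFKB1, NFKB2, RELB, NFKBIA, NFKBIE and NFKBID alike, with 8 and 10 h between. For NFKB1 the 2 and 4 h groups of both arms overlapped from one to the next, as did the groups from control 10 h through knockdown 10 h to control 8 h, and the 0 h groups of the arms overlapped each other. For NFKB2 the 4 h groups of both arms, knockdown 2 h and control 2 h overlapped in turn, as did control 8 h, knockdown 8 h and control 10 h, while knockdown 10 h, knockdown 0 h and control 0 h each stood apart. For RELB the same run from 4 to 2 h overlapped, as did the 8 and 10 h groups of both arms and the 0 h groups. For NFKBIA, neighbours overlapped within 2 h, within 4 h, through the 8 and 10 h groups and within 0 h. For NFKBIE they overlapped within 2 h, within 4 h and through the 8 and 10 h groups, and the 0 h groups stood apart. For NFKBID they overlapped within 2 h, through the 8 and 10 h groups and within 0 h, while knockdown 4 h stood below control 4 h with no overlap.

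Before IL1B, ORMDL3 knockdown cells had more NFKB2, NFKBIE and RELB transcript than control cells. NFKB2 was higher by 0.55 ± 0.09 (SE, limma, adjusted p = 0.000148), NFKBIE by 0.36 ± 0.09 (adjusted p = 0.0165) and RELB by 0.35 ± 0.09 (adjusted p = 0.0210). These are 3 of 6 genes called higher, where 2.33% of all probe sets were. For NFKB2 and NFKBIE every knockdown array lay above every control array, as it did for 8.37% of all probe sets. For the others the difference was 0.21 for NFKB1 (95% interval 0.04 to 0.39, adjusted p = 0.211), 0.03 for NFKBIA (-0.11 to 0.16) and -0.08 for NFKBID (-0.23 to 0.08). The call for NFKB2 held without any single array. That for NFKBIE ended without all arrays numbered 4 (0.37, adjusted p = 0.0688), and without knockdown 0 h array 1 or 4 or control 0 h array 1 or 2 (adjusted p = 0.0539 to 0.0814). That for RELB ended with median centring (0.32, adjusted p = 0.0615), and without knockdown 0 h array 2 or 4 or control 0 h array 2 or 3 (adjusted p = 0.0623 to 0.169). With only the 7 arrays of 0 h in the fit, the differences stayed as they were and the adjusted p was 0.0820 for NFKB2, 0.0872 for NFKBIE and 0.239 for RELB.

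The same 0 h arrays also differed in small nucleolar RNA, whose mean over 117 probe sets was 7.37 to 7.55 on knockdown arrays and 6.87 to 7.31 on control arrays, with no overlap. With that mean as a covariate the 0 h difference was 0.68 for NFKB2 (adjusted p = 9.01e-07), 0.41 for RELB (adjusted p = 0.00992) and 0.38 for NFKBIE (adjusted p = 0.0202), so all 3 calls were kept. Of the 3 leukocyte markers, ITGAM was called higher in knockdown cells at 0 h (0.32 ± 0.09, SE, adjusted p = 0.0472), and its part in these differences was not tested.

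During IL1B, at 2, 4, 8 and 10 h, NFKB2, NFKBIE and RELB were not called between the arms, and NFKBID was lower in knockdown cells at 4 and 10 h. At 4 h NFKBID was lower by a log2 difference of -0.36 ± 0.07 (SE, adjusted p = 0.00287), 1 of 6 genes where 0.732% of probe sets were called lower. At 10 h the difference was -0.29 ± 0.07 (adjusted p = 0.0237), again 1 of 6, where 1.19% were called lower. Between them, at 8 h, it was -0.23 ± 0.08 (adjusted p = 0.108). Averaged over the 5 hours with equal weights it was -0.19 ± 0.03 (adjusted p = 6.12e-05), the only 1 of 6 called, where 12.1% of probe sets were called lower. A count of 1 of 6 is near that share. The 10 h call ended without knockdown 10 h array 2 or 4 or control 10 h array 1 or 3 (-0.29 to -0.22, adjusted p = 0.0597 to 0.147), while the calls at 4 h and for the mean held without any single array. With only the arrays of the 4 h groups in the fit, the adjusted p at 4 h was 0.107.

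At 2 and 8 h limma called 0 of 6 genes between the arms, where 6.18% and 2.88% of probe sets were called in either direction. At an unadjusted p under 0.05, 2 genes were higher in knockdown cells at 2 h and 3 were lower at 8 h. The share of all probe sets at that threshold was not counted, so these counts have no background. The 2 at 2 h were RELB, with 0.21 ± 0.08 (SE, adjusted p = 0.126), and NFKB2, with 0.19 ± 0.08 (adjusted p = 0.154). The 3 at 8 h were NFKB1 with -0.21 ± 0.09 (adjusted p = 0.203), NFKBIE with -0.24 ± 0.09 (adjusted p = 0.140) and NFKBID. Groups that did not overlap, with knockdown lower, were found at 4 h for NFKBID (2.68% of all probe sets), at 8 h for NFKB1, NFKBIA and NFKBID (8.39%) and at 10 h for NFKB2 (4.02%). The difference of NFKBIA lay between -0.10 and 0.05 at all 5 hours, and its 95% intervals reached at most from -0.23 to 0.17.

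**Figure D3:**
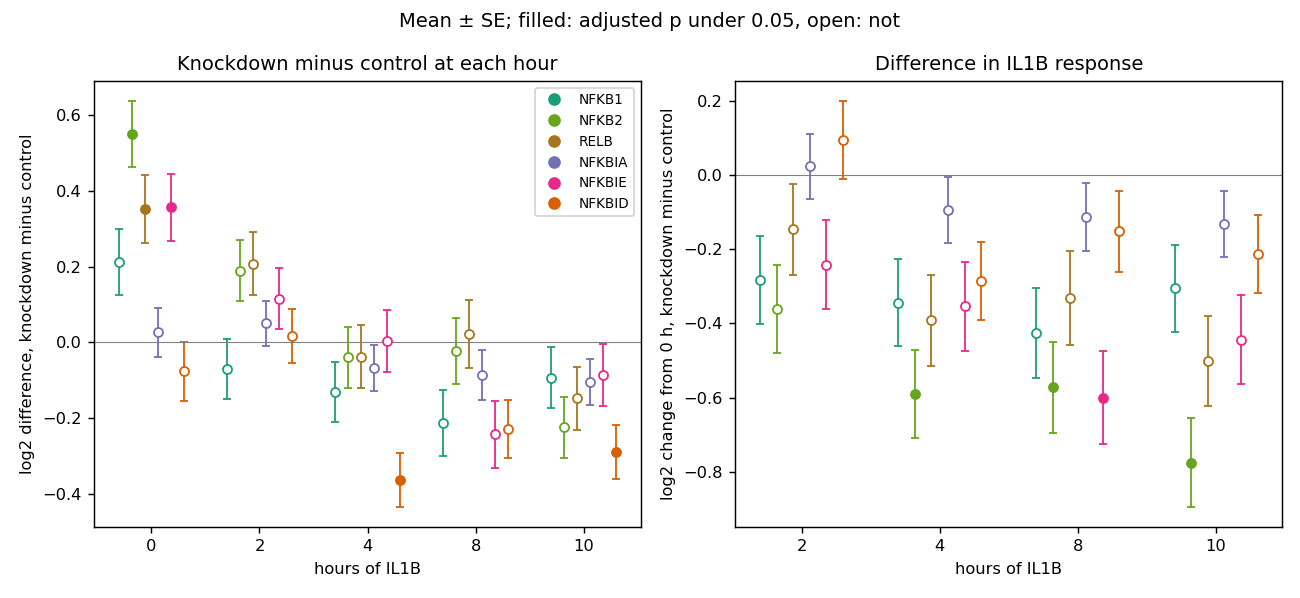
Left, log2 difference between knockdown and control cells at each hour of IL1B. Right, log2 change from 0 h in knockdown cells minus that in control cells. Points are limma estimates ± SE for the 6 genes, filled where the adjusted p was under 0.05. NFKB2, RELB and NFKBIE are filled at 0 h, NFKBID at 4 and 10 h, and on the right NFKB2 at 4, 8 and 10 h and NFKBIE at 8 h.

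The rise of NFKB2 after IL1B was smaller in knockdown cells than in control cells. The difference in change was -0.59 ± 0.12 at 4 h (SE, limma, adjusted p = 0.0340), -0.57 ± 0.12 at 8 h (adjusted p = 0.0342) and -0.78 ± 0.12 at 10 h (adjusted p = 0.000876), and -0.57 ± 0.10 as the mean of the 4 hours (adjusted p = 0.00331). At 2 h it was -0.36 ± 0.12 (adjusted p = 0.268). Over the 4 hours jointly, limma's F test gave NFKB2 an adjusted p of 0.00885 and the 6th smallest p, and 24 probe sets, 0.166%, were called. These values share the 0 h arrays of both arms, where NFKB2 was higher by 0.55 in knockdown cells. The levels reached differed by -0.04 ± 0.08 at 4 h and -0.02 ± 0.09 at 8 h, and by -0.22 ± 0.08 at 10 h (adjusted p = 0.158). The change from 2 to 10 h, which leaves the 0 h arrays out, differed by -0.41 ± 0.11 (adjusted p = 0.141). For that change limma called 0 of 6 genes and 0.0207% of probe sets. At an unadjusted p under 0.05, where no share of all probe sets was counted, 3 genes passed for that change. NFKB2 was called for it with array weights (adjusted p = 0.00879), replicate number as a block (0.0278), all arrays numbered 4 left out (0.0299) or the small nucleolar RNA covariate (0.0417). Its level at 10 h was also called lower in knockdown cells with array weights (-0.26, adjusted p = 0.0355) and with the block (-0.22, adjusted p = 0.0415).

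The calls for NFKB2 at 4 and 8 h were not stable. Without the knockdown 0 h array numbered 4, the highest of its group, they were -0.48 (adjusted p = 0.163) and -0.46 (adjusted p = 0.121), and the lowest adjusted p among the arrays that ended them was 0.0504 at 4 h and 0.0586 at 8 h. At 4 h these were 11 arrays: knockdown 0 h 1 and 4, knockdown 4 h 1, 2 and 3, control 0 h 1, 2 and 3, and control 4 h 1, 3 and 4. At 8 h they were 8 arrays: knockdown 0 h 1 and 4, knockdown 8 h 1 and 2, control 0 h 2 and 3, and control 8 h 1 and 2. Both calls also ended with quantile normalization (adjusted p = 0.107 and 0.104). The calls at 10 h, for the mean and in the joint test held without any single array.

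NFKBIE also rose less in knockdown cells at 8 h, by a difference of -0.60 ± 0.12 (SE, limma, adjusted p = 0.0237). That value uses the 0 h arrays, where NFKBIE was higher by 0.36 in knockdown cells. The level reached at 8 h differed by -0.24 ± 0.09 (limma, adjusted p = 0.140). At 2, 4 and 10 h the difference in the change of NFKBIE was -0.24, -0.35 and -0.44 (SE 0.12 each), not called. So 1 of 6 genes was called at 4 h, 2 at 8 h, 1 at 10 h and 1 for the mean, where 0.0621%, 0.214%, 0.0828% and 0.228% of probe sets were called lower. At 2 h limma called 0 of 6, where 0.0276% were called in either direction. At an unadjusted p under 0.05 there were 2, and no share of all probe sets was counted at that threshold. The NFKBIE call ended without knockdown 0 h array 1 or 4, knockdown 8 h array 3, control 0 h array 2 or control 8 h array 1 (-0.61 to -0.53, adjusted p = 0.0596 to 0.12) and with the small nucleolar RNA mean as a covariate (-0.63, adjusted p = 0.0582).

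The mean difference in change over the 4 hours was -0.41 for NFKBIE (95% interval -0.61 to -0.21, adjusted p = 0.0641), -0.34 for NFKB1 (-0.53 to -0.14, adjusted p = 0.184), -0.34 for RELB (-0.54 to -0.14, adjusted p = 0.203), -0.14 for NFKBID (-0.31 to 0.03) and -0.08 for NFKBIA (-0.23 to 0.07). The intervals of NFKBIE, NFKB1 and RELB lay below 0, and none of the 3 passed the adjusted threshold. These differences too share the 0 h arrays, where knockdown cells were higher by 0.36 for NFKBIE, 0.21 for NFKB1 and 0.35 for RELB. During IL1B, none of the 3 was called between the arms at any hour.

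The courses of the 6 genes were alike to different degrees. Over the 10 group means, which share the arrays of each group, NFKB2 and RELB had a Pearson correlation of 0.98 and NFKBIA and NFKBID 0.99, and the lowest of the 15 pairs, RELB with NFKBIE, had 0.79. After each array's group mean was taken away, NFKB2 and RELB had 0.58 over the 38 arrays and NFKBIA and NFKBID 0.40, while NFKB1 with RELB had -0.32. These are descriptions, and pairs of probe sets on 1 array share its RNA and its scan.

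Among 1189 other probe sets whose group means spanned at least 1 log2 unit, those with a course most like each gene over the 10 group means were found by Pearson correlation. They were MB21D2, STX11 and CFLAR for NFKB1 (0.99 each), and SLC25A37, C11orf96 and MAP2K3 for NFKB2 (0.99 each). For RELB they were C11orf96, CSF3 and DTX2 (0.99 each), and C11orf96 is thus among the likest of both NFKB2 and RELB. For NFKBIA they were NFKBIZ (0.99), PDE4B (0.98) and BIRC2 (0.97). For NFKBIE they were MAFF (0.99), IRF1 (0.99) and HAND1 (0.98). For NFKBID they were BIRC2 (0.99), NFKBIZ (0.99) and MAP3K8 (0.98).

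The other measured REL and IkB genes rose as well: 5 of 5 in knockdown cells and 5 of 5 in control cells were called higher as the mean of the 4 hours, where 12.1% of probe sets were called higher and 19% lower in knockdown cells, and 18.1% higher and 21.2% lower in control cells. NFKBIZ, a nuclear IkB protein, changed by 1.31 ± 0.05 in knockdown cells and 1.54 ± 0.05 in control cells (SE), and REL, the c-Rel subunit, by 1.00 ± 0.07 in knockdown cells and 1.11 ± 0.07 in control cells. NFKBIB, or IkB-beta, changed by 0.72 ± 0.05 in knockdown cells and 0.76 ± 0.05 in control cells, and BCL3, a nuclear IkB protein that binds p50 and p52, by 0.94 ± 0.07 in knockdown cells and 0.72 ± 0.06 in control cells. RELA, which encodes the p65 subunit, changed by 0.47 ± 0.05 in knockdown cells and 0.45 ± 0.05 in control cells. All 6 genes described above changed by more than RELA did in both arms, the smallest of them, NFKBIA, by 0.93 ± 0.05 in knockdown cells and 1.01 ± 0.05 in control cells. Between the arms, BCL3 was lower in knockdown cells by a mean difference of -0.15 ± 0.04 and NFKBIB by -0.11 ± 0.03, both called. These are 2 of 5 genes, where 12.1% of all probe sets were called lower in knockdown cells over the 5 hours. At 0 h BCL3 was lower by -0.32 ± 0.08, opposite in sign to NFKB2, RELB and NFKBIE.

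Among the kinases, TAB adaptors and IL1 receptor proximal genes upstream of NF-kB, the largest changes were those of IRAK2, IKBKE and IRAK3. The counts of genes called in the lists that follow stand against the same 12.1% of all probe sets called higher and 19% lower in knockdown cells, and 18.1% higher and 21.2% lower in control cells. Of 9 measured kinases and TAB adaptors, 6 were called higher and 0 lower in knockdown cells, and 5 higher and 1 lower in control cells. The kinase gene IKBKE changed most, by 1.63 ± 0.07 in knockdown cells and 1.94 ± 0.06 in control cells (SE). The median of this list was 0.28 in knockdown cells and 0.42 in control cells, where the median of all probe sets was -0.04 in knockdown cells and -0.02 in control cells. Of 11 measured IL1 receptor and proximal signalling genes, 2 were called higher and 0 lower in knockdown cells, and 5 higher and 1 lower in control cells, so in knockdown cells the share called higher was near that of all probe sets. The changed ones in both arms were IRAK2, a kinase that carries the signal on, with 2.32 ± 0.06 in knockdown cells and 2.45 ± 0.05 in control cells, and IRAK3, an inhibitory member of that family, with 1.53 ± 0.16 in knockdown cells and 1.81 ± 0.14 in control cells. Both were lower in knockdown than in control cells over the 5 hours, IRAK3 by -0.52 ± 0.08 and IRAK2 by -0.26 ± 0.03. In that comparison of the arms, 3 of the 11 genes were called lower, where 12.1% of all probe sets were.

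Of 7 measured receptors, TRAF adaptors and ubiquitin ligases tied to the alternative pathway, 4 were called higher in knockdown cells and 6 in control cells, and 0 lower in either, where 12.1% of all probe sets were called higher in knockdown cells and 18.1% in control cells. TRAF1 changed by 2.03 ± 0.11 in knockdown cells and 1.61 ± 0.10 in control cells (SE), CD40 by 1.74 ± 0.12 in knockdown cells and 1.59 ± 0.11 in control cells, and BIRC2 by 1.02 ± 0.08 in knockdown cells and 1.08 ± 0.07 in control cells. Of 11 genes of the machinery that degrades IkB, 1 was called higher and 1 lower in knockdown cells, and 3 higher and 1 lower in control cells, where the same shares of all probe sets were called. PDLIM2, a ligase for nuclear RELA, fell by 0.27 ± 0.08 in knockdown cells and by 0.22 ± 0.07 in control cells. FBXW11, a subunit of the ligase that recognises IkB, changed by 0.19 ± 0.06 in knockdown cells and 0.19 ± 0.05 in control cells. Of 12 regulators of the A20 type, several of which remove or bind ubiquitin chains in this pathway, 10 were called higher in knockdown cells and 11 in control cells, and 0 lower in either. TNFAIP3, the gene of A20, changed by 3.37 ± 0.06 in knockdown cells and 3.84 ± 0.06 in control cells. At 0 h, 5 of these 12 were called higher in knockdown cells, where 2.33% of all probe sets were, TNFAIP3 by 0.33 ± 0.08.

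**Figure D4:**
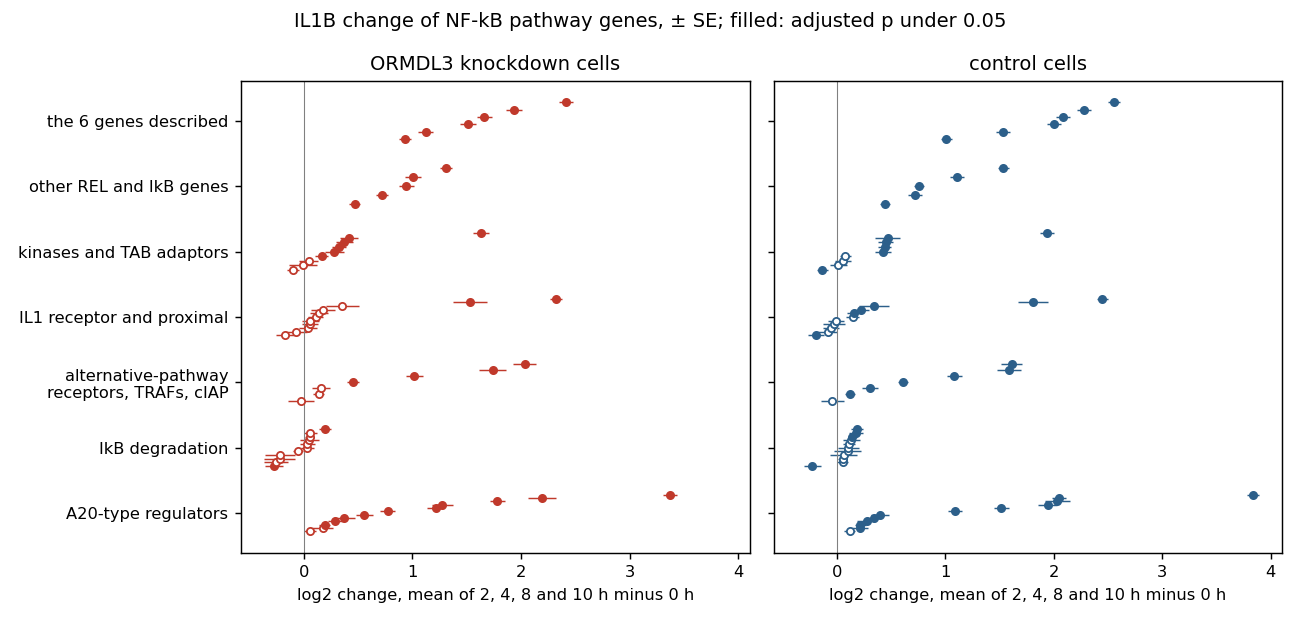
Log2 change (mean of 2, 4, 8 and 10 h minus 0 h, horizontal axes) of the 6 genes described and of 6 lists of pathway genes, in knockdown cells (left, red) and control cells (right, blue). Each point is 1 gene ± SE, filled where limma's adjusted p was under 0.05. All 6 genes and the 5 other REL and IkB genes are filled and right of 0 in both arms, and most genes of IkB degradation lie near 0.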

How the data were processed

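The authors deposited log2 expression levels of 14488 probe sets on each of 38 arrays, with no missing value. Per the submitters' processing notes, the tools were limma 3.22.7, RMA and Affymetrix Power Tools and the build was hg19, with no role or order stated. How the authors picked the probe sets is not stated in the sources used here. RNA had an integrity number above 9, per the labels' protocols. No further normalization was applied. Precision is limited by the number of arrays.

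Groups (arm and hour) and replicate numbers came from the labels. With limma 3.58.1 in R 4.3.3, 1 mean per group was fitted to all 38 arrays, and p-values were adjusted by Benjamini-Hochberg over all 14488 probe sets per contrast. A gene is called at an adjusted p under 0.05. The steps were tested on simulated data. Genes came from probe sets with 1 symbol in the platform annotation (12132 had 1, 628 several and 1728 none).

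The genes named were the 6 members, ORMDL3, the 3 likest genes of each member, and per pathway list up to 4 genes with the largest IL1B change in control cells and up to 2 with the largest knockdown difference. Cell type markers came from a list of their own. Members and lists were chosen with earlier results of these data known. Each list used the brightest probe set of a gene. Alternatives were quantile normalization, median centring, a filter on dim probe sets, a variance trend, array weights, replicate number as a block, a small nucleolar RNA covariate, fits of 2 groups only, and leaving arrays out.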

Additional observations from a re-analysis of the deposited data

Results flagged for a closer look

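In 3 of 48 tests of 1 gene in a group of 4 arrays, 1 array stood far from the other 3, where chance gives about 1 in 20. NFKB1 on the control 0 h array numbered 1 was 8.88, with the others at 8.58 to 8.62. NFKBIE on the knockdown 2 h array numbered 1 was 9.14, with the others at 9.31 to 9.35, and on the knockdown 8 h array numbered 3 it was 7.20, with the others at 7.46 to 7.51. NFKB2, RELB, NFKBIA and NFKBID had no such array.

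The IL1B change differed between the arms by limma's test for NFKB2, with -0.59 at 4 h, -0.57 at 8 h, -0.78 at 10 h, a mean of -0.57 and an adjusted p of 0.00885 in the joint F test, and for NFKBIE, with -0.60 at 8 h. These values share the 0 h arrays, where both genes were higher in knockdown cells. Without the low knockdown 8 h array numbered 3, the NFKBIE difference was -0.53 (adjusted p = 0.0756).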

How the results depend on the processing

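All 6 genes stayed called higher after IL1B at every hour in both arms under every alternative that could be run. With the filter on dim probe sets, which left NFKBIE out, it was 5 of 5. No result that was called in the main fit or in the alternative turned its direction. Some differences near 0 that were called in neither did change sign. An example is RELB between the arms at 4 h, with -0.04 in the main fit and up to 0.02 in an alternative. Other counts of called genes moved. For knockdown 10 against 8 h (2 called), quantile normalization gave 0, median centring 1, leaving out all arrays numbered 4 gave 1, fitting only both groups 0, and single arrays left out 0 to 2. For knockdown against control at 0 h (3), fitting only both groups gave 0, median centring, the dim filter and leaving out arrays numbered 4 gave 2 each, and single arrays left out 1 to 3. At 2 h (0), array weights gave 1 and leaving out arrays numbered 4 gave 2. At 4 h (1), fitting only both groups gave 0. At 10 h (1), array weights and the replicate block gave 2, leaving out arrays numbered 4 and fitting only both groups 0, and single arrays left out 0 to 1. For the mean (1), the replicate block and the small nucleolar RNA covariate gave 2 and single arrays left out 1 to 3. For the difference in response at 4 h (1), quantile normalization, median centring and leaving out arrays numbered 4 gave 0, and single arrays left out 0 to 1. At 8 h (2), quantile normalization and median centring gave 0, while the dim filter, leaving out arrays numbered 4 and the covariate gave 1, and single arrays left out 0 to 2. At 10 h (1), array weights and the replicate block gave 2, and single arrays left out 1 to 2. For the mean (1), array weights gave 3, the replicate block 2 and single arrays left out 1 to 2. For the change from 2 to 10 h (0), array weights gave 3, and the replicate block, leaving out arrays numbered 4 and the covariate 1. In the joint test (1), array weights gave 4. For NFKB2 at 0 h median centring gave 0.52 and for RELB 0.32 (adjusted p = 0.0615). The ORMDL3 difference without single arrays was -1.88 to -1.69 at 0 h and -2.19 to -2.07 at 8 h, with exact p of 0.0667 to 0.1, since those groups then hold too few arrays for a smaller p. Over all probe sets, calls of a knockdown difference at 0 h (480) were 1552 with array weights and 750 with the replicate block, and 259 without arrays numbered 4. Calls of a mean difference in response (34) were 536 with array weights, 65 with the block, 18 with quantile normalization, 17 with median centring and 9 with the covariate. The labels do not say what a replicate number shares. Deviations from the group means correlated by a median of 0.18 between same-numbered arrays of different groups (-0.29 to 0.62, 107 of 162 pairs above 0.1), against -0.06 between differently numbered ones (104 of 487 above 0.1). For number 4 all 36 pairs were above 0 (0.03 to 0.62), and 28 of 38 arrays correlated best with their own number, a hint from the data of something shared by number. The fit without the block was kept because not every pair was above 0.1, a rule that cannot show the arrays to be unpaired. The calls the block added were NFKB2 at 10 h (adjusted p = 0.0415) and for the mean (0.0443) between the arms, and, in the difference in response, RELB at 10 h (0.0404), NFKBIE for the mean (0.0481) and NFKB2 from 2 to 10 h (0.0278). It ended none. The cause of the other moves was not tested. Groups of 3 or 4 arrays limit what could be called, and no detection values were used. Over the 38 arrays in place of the group means, the gene most like each member was STX11 for NFKB1, MAP2K3 for NFKB2, CCL2 for RELB, NFKBIZ for NFKBIA and NFKBID, and MAFF for NFKBIE. The likeness was 0.98 to 0.99.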
